A study of Mus musculus with 12 samples.

Results

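The vomeronasal receptor genes were followed in DNA copy number data from mouse nerve sheath tumours. The members were all autosomal array probes whose gene name starts with V1r, V2r, Vmn1r or Vmn2r. This gave 65 probes of 59 genes among 40726 autosomal probes that carry 25916 different names. Of these probes, 53 belonged to 49 V1r genes and 12 to 10 Vmn2r genes. Probes of one chromosome less than 1 Mb apart were joined, which gave 15 clusters on chromosomes 3, 5, 6, 7, 10, 13 and 17. Of the clusters, 5 held at least 3 probes, 6 held 2 and 4 held 1. A further 5 probes were described in the files as vomeronasal or pheromone receptors under other names (AK082576, Y12724, Y12725, BC110566) and were not members. Their mean deviations lay between -0.13 and 0.37 log2.

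The tumours were 11 malignant peripheral nerve sheath tumours grown in culture from P0-GGFβ3 transgenic mice, in which the promoter of the myelin gene P0 drives the neuregulin-1 variant GGFβ3 in Schwann cells. Each named tumour was taken as 1 sample; the labels do not say whether any 2 came from the same mouse. The mixed background, C57BL/6J x SJL/J, gave 7 tumours (A394, A390, A382, A292, A202, A18 and 231 Trig), and C57BL/6J gave 4 (B86, B91, B96 and B76). Every tumour carried the transgene, and the tumour cells were at passages 5 to 13 where a passage is labelled. Each array set tumour DNA, labelled with Cy5, against DNA of wild-type C57BL/6J Schwann cells, labelled with Cy3. No dye-swapped array was present, so a dye effect of a probe and a copy number difference common to all tumours cannot be told apart. DNA carries no cell type markers, and the tumour identity of the cultures was not checked here.

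Vomeronasal receptors are G protein-coupled receptors of the sensory neurons of the vomeronasal organ, where they detect pheromones and other social cues. V1r receptors are expressed with the G protein subunit Gnai2 and V2r receptors with Gnao1, and both lead to opening of the channel Trpc2. The genes lie in tandem arrays of closely related copies, and these arrays differ in gene content between mouse strains. The members are therefore read here as positions in the genome, not as genes expressed in the tumours.

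The probes on which the results turn are shown with their sequences as the array files give them. The strand was not stated, and positions are mm9. Capitals mark the longest run that a probe shares with another of the 65 member probes on either strand, where that run has at least 12 bases. V1rd18 had the one difference between backgrounds that passed the test, and V1rd16 is its neighbour in the same cluster. Their probes share a run of 12 bases. They lie at chr7:24788906-24788965 and chr7:24738209-24738268.
V1rd18: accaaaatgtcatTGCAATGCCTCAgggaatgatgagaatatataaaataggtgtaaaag
V1rd16: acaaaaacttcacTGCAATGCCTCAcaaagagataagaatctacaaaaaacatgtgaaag
The V1rl1 gene is covered by 3 probes between 11218922 and 11219494 of chromosome 7, here in genome order. They are shown because they gave different values within 1 gene.
V1rl1 probe a: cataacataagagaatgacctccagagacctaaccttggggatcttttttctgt
V1rl1 probe b: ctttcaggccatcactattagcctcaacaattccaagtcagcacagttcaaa
V1rl1 probe c: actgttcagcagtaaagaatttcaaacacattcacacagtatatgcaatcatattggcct
V1rj3, at chr7:13670090-13670149, had the value farthest from 0 in 1 tumour.
V1rj3: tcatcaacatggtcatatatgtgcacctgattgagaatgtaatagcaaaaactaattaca
The remaining sequences are those of the highest and lowest mean deviations. They lie on chromosome 17 at 17841039-17841098 (Vmn2r90), 21027550-21027609 (V1re7), 21050870-21050929 (V1re4), 21450961-21451020 (V1rf3) and 21398320-21398379 (V1rf2), and on chromosome 13 at 22370958-22371017 (V1ri6).
Vmn2r90: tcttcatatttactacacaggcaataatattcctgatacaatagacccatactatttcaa
V1re7: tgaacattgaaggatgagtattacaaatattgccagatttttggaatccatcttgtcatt
V1re4: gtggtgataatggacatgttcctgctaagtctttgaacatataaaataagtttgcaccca
V1rf3: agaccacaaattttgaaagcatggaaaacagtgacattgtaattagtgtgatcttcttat
V1rf2: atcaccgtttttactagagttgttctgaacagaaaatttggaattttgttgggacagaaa
V1ri6: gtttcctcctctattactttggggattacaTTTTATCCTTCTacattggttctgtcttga
Over all 65 probes, the longest run shared with another member had a median of 10 bases, and 14 probes shared at least 12. The files list 1 perfect genomic match for each of the 65. The V1rd18 probe is annotated with transcripts of both V1rd18 and V1rd19, so its gene is uncertain. By accession all 65 probes matched a RefSeq entry (GRCm38 table, names only); there V1re7 is Vmn1r231, V1re4 is Vmn1r232, V1rf3 is Vmn1r237, V1rf2 is Vmn1r235, V1ri6 is Vmn1r195, V1rl1 is Vmn1r70, V1rj3 is Vmn1r85 and V1rd16 is Vmn1r180.

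All values below are log2 ratios of tumour over reference, less the median of the probe's chromosome on the same array, and are called deviations. A value of 0 is the usual level of that chromosome in that tumour, so gain or loss of a whole chromosome does not enter. The chromosome medians that were removed ran, for the chromosomes with members, from -0.36 (chromosome 13 in A202) to 0.67 (chromosome 6 in B91). The 12 arrays lay on 3 slides, and slide 1 (A18, 231 Trig, B86 and A202) was read on another scanner than the others. All 65 member probes were well above background on every array. Over all autosomal probes the SD of the deviations was 0.24 to 0.32 by tumour, and over the members 0.16 to 0.33.

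Over the 11 tumours, more receptor probes lay above their chromosome's level than below it. The mean deviation was above 0 for 54 of the 65 probes and below 0 for 11, while over all autosomal probes it was above 0 for 20188 and below 0 for 20538. The median of the mean deviations was 0.12 for the members and -0.0018 for all probes. A probe was called where limma gave a Benjamini-Hochberg adjusted p under 0.05 over all autosomal probes and the size was at least 0.2. By this rule 22 of the 65 members were higher (33.8%) and 2 were lower (3.08%), and 41 did not pass. The same rule called 13.9% of all autosomal probes higher and 15.4% lower, so calls against 0 are frequent on these arrays for any probe. With normexp background correction the members split into 26 higher and 6 lower. The members' probes had a median GC content of 35.0%, against 36.67% over all probes, and after adjustment of the ratios for GC content 22 members were higher and 3 lower.

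Each background was also set against 0 on its own. In the 4 C57BL/6J tumours 21 members were higher and 3 lower, where the rule called 14.9% of all probes higher and 16.0% lower. In the 7 mixed tumours 17 were higher and 3 lower, beside 13.4% and 14.9% of all probes. These fits share the reference DNA, so their calls are not independent of each other. Counted by gene, with the probes of a gene averaged, 20 of 59 members were higher and 2 lower over the 11 tumours, while 12.3% of all genes were higher and 12.3% lower.

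**Figure D1:**
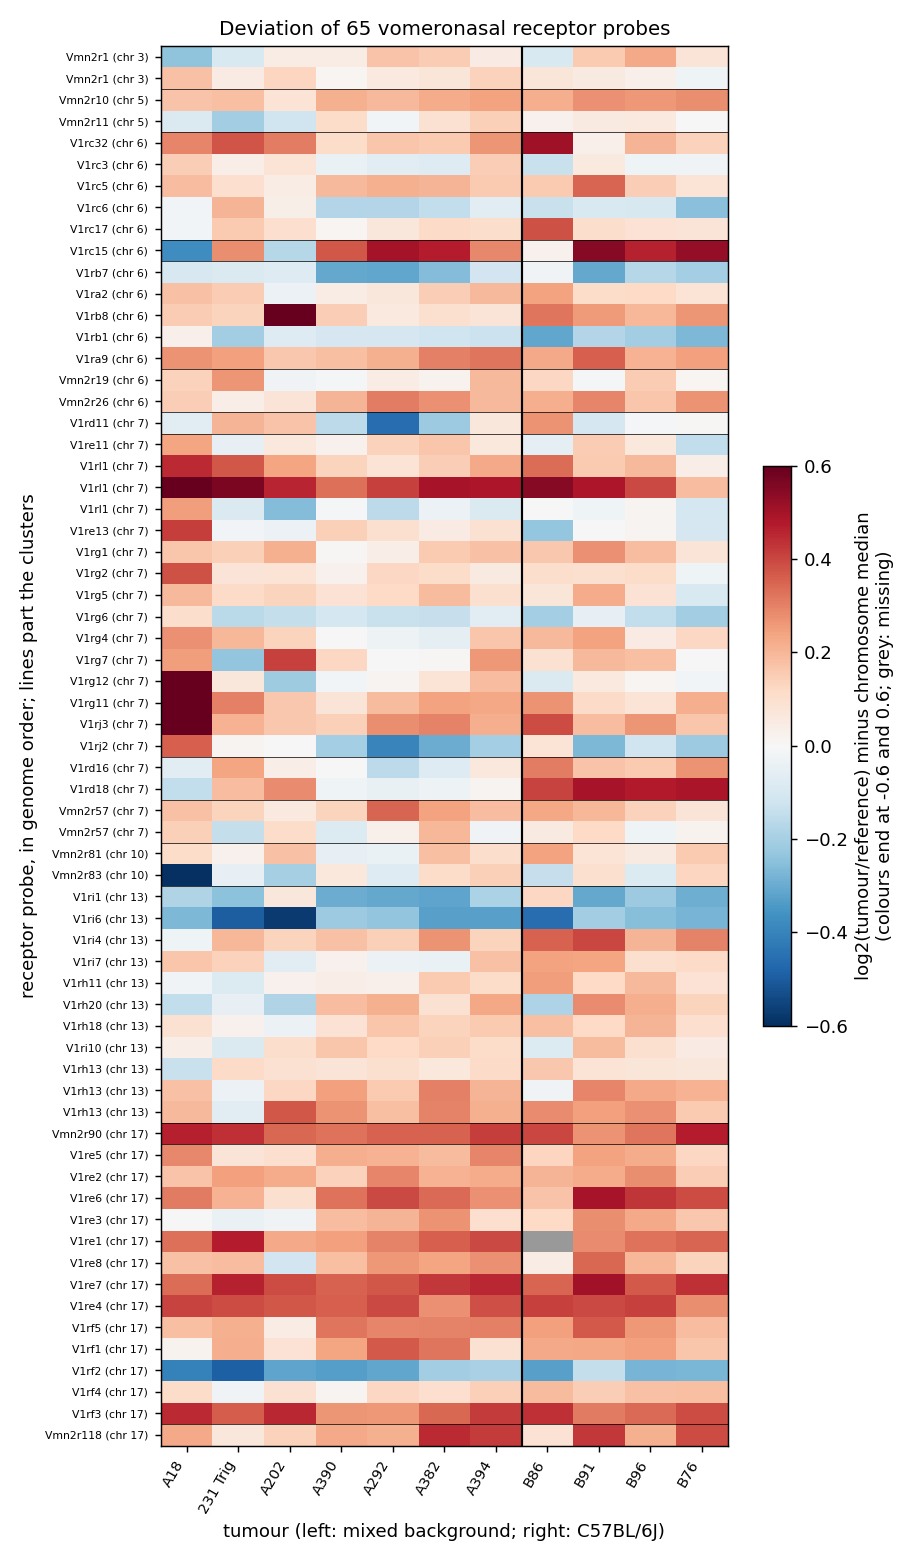
Deviation of each of the 65 receptor probes (vertical, in genome order, parted by cluster) in each of the 11 tumours (horizontal, mixed background left of the line and C57BL/6J right of it), as log2 ratio less the chromosome median. Of the V1re and V1rf probes of chromosome 17, 12 of 13 have a mean above 0 and V1rf2 is below 0 in all 11 tumours. From V1rg12 to V1rj3, A18 is far above the other tumours, and V1rd18 is high in the 4 C57BL/6J tumours.

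The highest cluster of several genes was the V1re and V1rf array of chromosome 17, which holds 13 probes of 13 genes within 811.7 kb. Of these, 8 were higher, V1rf2 was lower and 4 did not pass, and the mean deviation was above 0 for 12 of the 13. Of all autosomal probes, 13.9% were higher and 15.4% lower. The cluster's median was lowest in A202 at 0.097, had a middle value of 0.24 over the 11 tumours and was highest in A292 at 0.29. It averaged 0.22 ± 0.069 (SD, n = 7) in the mixed tumours and 0.23 ± 0.048 (SD, n = 4) in the C57BL/6J tumours. In the latter it was 0.20 in B86, 0.28 in B91, 0.26 in B96 and 0.18 in B76, so the backgrounds overlapped.

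V1re7 and V1re4, neighbouring receptors within this array, were raised in every tumour. The V1re7 probe read 0.34 to 0.46 in the mixed tumours, with a median of 0.39, and 0.35, 0.50, 0.37 and 0.44 in B86, B91, B96 and B76. Its mean was 0.40 ± 0.055 (SD, n = 11; limma adjusted p = 5.83e-09). The spread between tumours was small against the deviation, and the difference between backgrounds was -0.016 (limma adjusted p = 0.982). V1re4 read 0.27 to 0.40 in the mixed tumours, with a median of 0.39, and 0.41, 0.40, 0.41 and 0.28 in B86, B91, B96 and B76, a mean of 0.37 ± 0.049 (SD, n = 11; limma adjusted p = 7.79e-09). V1rf3, at the far end of the array, had a mean of 0.37 ± 0.070 (SD, n = 11), with a lowest value of 0.26 and a highest of 0.45. V1re1 and V1re6 had means of 0.33 and 0.31, and V1re1 had no value in B86, where its spot was marked in the file and left out.

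V1rf2 went the other way within the same array. Its probe read -0.49 to -0.20 in the mixed tumours, with a median of -0.32, and -0.33, -0.14, -0.28 and -0.27 in B86, B91, B96 and B76. The mean was -0.30 ± 0.097 (SD, n = 11; limma adjusted p = 1.39e-06). All 11 tumours were below 0, while V1rf1 on one side had a mean of 0.20 and V1rf4 on the other 0.11. Without the chromosome median, the V1rf2 mean was -0.18 and no longer passed the size minimum. V1rf1 lay at the size minimum, and leaving out any of 231 Trig, B86, A390, B91, A292, A382 or B96 brought it to between 0.19 and 0.20, below it.

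The raised level was not limited to the receptor probes of this part of chromosome 17. Among the 10 other probes between V1re5 and V1rf3, 4 were higher, none was lower and 6 did not pass, with a median mean deviation of 0.17. Within 1 Mb on either side, 9 of 32 other probes were higher, none lower, and the median was 0.11. The highest of them, an unnamed probe before V1re5 at chr17:20196706-20196765 (mm9), had a mean of 0.93 ± 0.080 (SD, n = 11), above every receptor probe. Of the 1 Mb bins that hold members, the bin with V1re5 to V1re8 had a mean of 0.20 ± 0.047 (SD, n = 11) and was called. The only other member bin called was that of Vmn2r118, further along chromosome 17, at 0.22 ± 0.047 (SD, n = 11), and in it 1 of 10 probes is a receptor. These were 2 of 23 member bins, while 1.51% of all 1 Mb bins were called higher. Without B91, without A292 or without A394, 1 member bin remained past the rule.

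**Figure D2:**
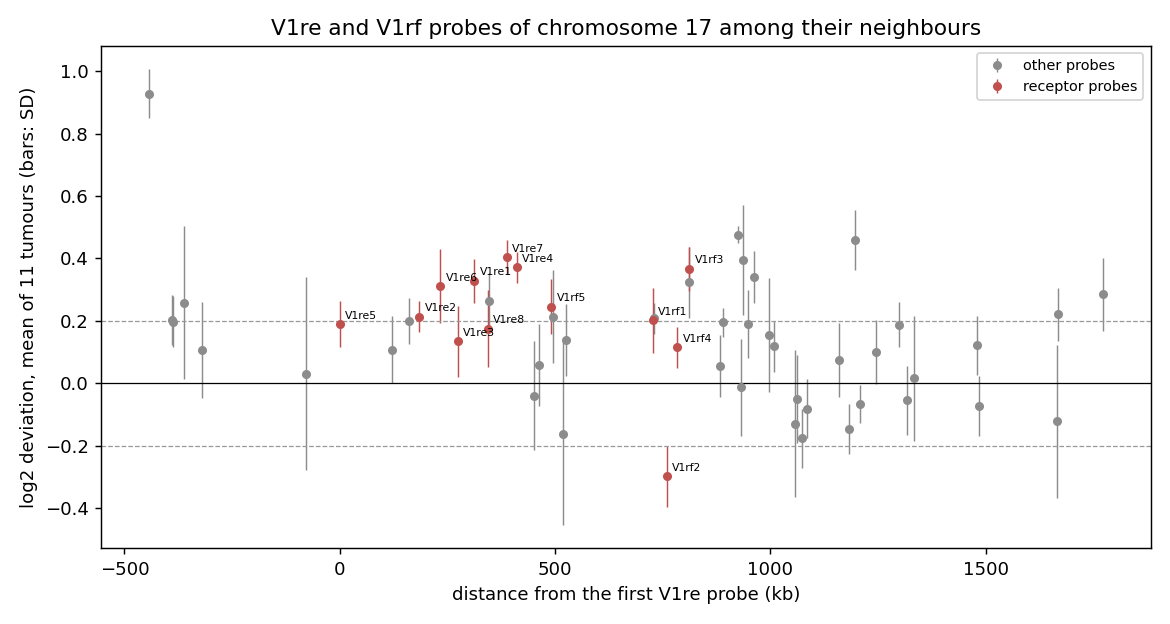
Mean deviation over the 11 tumours (vertical, log2, bars SD) of receptor probes (red) and other probes (grey) by distance in kb from the first V1re probe of chromosome 17, with dashed lines at the size minimum of 0.2. V1re7 at 0.40, V1re4 and V1rf3 at 0.37 stand highest among the receptors and V1rf2 at -0.30 lowest, and probes of other genes beyond V1rf3 reach similar levels. An unnamed probe before V1re5 stands at 0.93.

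The largest cluster was that of chromosome 7, with 15 probes of 13 genes over 2946 kb: V1re11, V1rl1, V1re13, 8 V1rg genes and V1rj3 and V1rj2. Its median was -0.017 to 0.36 over the 11 tumours, with a middle value of 0.091, and A18 had the highest value. The mixed tumours averaged 0.14 ± 0.11 (SD, n = 7) and the C57BL/6J tumours 0.077 ± 0.070 (SD, n = 4), with values of 0.091, 0.15, 0.081 and -0.017 in B86, B91, B96 and B76. Of the 15 probes, those called higher were 2 of V1rl1, V1rg11 and V1rj3, and none was lower, beside 13.9% and 15.4% of all autosomal probes.

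In A18 the cluster was split. V1rg12 read 1.07 in A18, V1rg11 1.23, V1rj3 1.35 and V1rj2 0.36. In the other 10 tumours V1rg12 averaged 0.0087 ± 0.11 (SD, n = 10), V1rg11 0.19 ± 0.078 and V1rj3 0.23 ± 0.077, and the highest of them on these probes was 0.39. A18 was thus above each of the other 10 tumours at all of these probes. Over the 4 probes the excess of A18 over the mean of the others had a median of 1.05, and over the 11 receptor probes before them, V1re11 to V1rg7, it had a median of 0.22. The change came between V1rg7, with 0.25 in A18, and the next probe, AK135674, with 0.91.

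The 18 other probes between V1rg12 and V1rj2 with a value in A18 had a median excess of 1.01, and each was above the mean of the other tumours by at least 0.49. The raised stretch of A18 runs on beyond V1rj2 through Lig1, a DNA ligase gene, and includes Trim28, a chromatin corepressor gene. A18's chromosome 7 median, which had been removed, was 0.28. There is 1 A18 array, so these values have no replicate. Leaving out A18 brought the mean of V1rg11 from 0.28 to 0.19, below the size minimum, and that of V1rj3 from 0.33 to 0.23, still called (limma adjusted p = 8.14e-06).

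**Figure D3:**
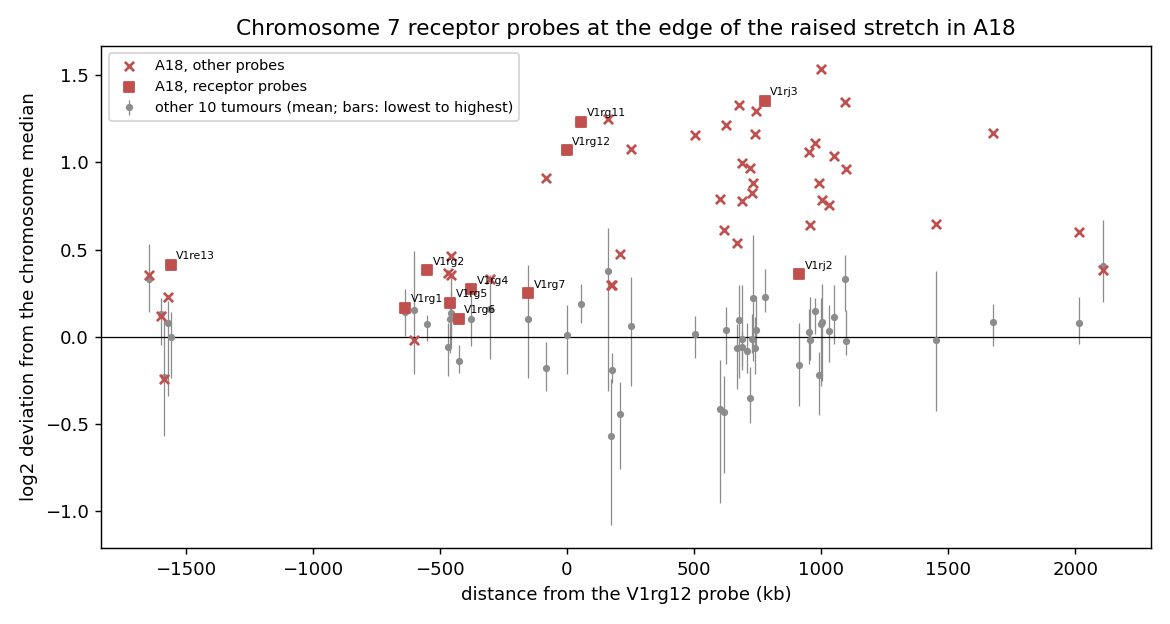
Deviation (vertical, log2) of probes of chromosome 7 by distance in kb from the V1rg12 probe, for A18 (red; squares receptors, crosses other probes) and for the other 10 tumours (grey, mean with bars from lowest to highest). The A18 values step up between V1rg7 at 0.25 and V1rg12 at 1.07, and V1rj3 reaches 1.35.

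The V1rl1 probes, all within one receptor gene, disagreed in the same tumours. Probe b read 0.33 to 0.65 in the mixed tumours, with a median of 0.49, and 0.54, 0.48, 0.40 and 0.19 in B86, B91, B96 and B76. Its mean of 0.46 ± 0.12 (SD, n = 11; limma adjusted p = 1.73e-07) was the highest of all 65 members. Probe a had a mean of 0.22 ± 0.13 and probe c one of -0.046 ± 0.13 (SD, n = 11 each). Probe c was above 0 in 2 of the 11 tumours and probes a and b in all 11. One value for the gene would therefore depend on the probe, and leaving out A18 took probe a to 0.19, below the size minimum.

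The V1rd pair further along chromosome 7 gave the one difference between backgrounds that passed the test. V1rd18 read 0.40 in B86, 0.50 in B91, 0.48 in B96 and 0.49 in B76, all of C57BL/6J background. In the mixed tumours it read -0.15 at the lowest, -0.025 at the median and 0.28 at the highest. The groups did not overlap, and the level that stood apart from the chromosome was that of the C57BL/6J tumours, whose background is the reference's own. The means were 0.47 ± 0.042 (SD, n = 4) and 0.034 ± 0.15 (SD, n = 7), a difference, mixed minus C57BL/6J, of -0.43 ± 0.074 (SE; limma adjusted p = 0.0480). V1rd18 was the only one of the 65 members called in this comparison, where the rule called 0.0933% of all probes higher and 0.0417% lower in the mixed tumours. Counted by gene, 1 of 59 members was called, beside 0.135% of all genes.

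The call on V1rd18 was close to the threshold. Leaving out any of A18, B86, A390, B91, A292, A382, B96, B76 or A394 raised the adjusted p to between 0.0689 and 0.193, while leaving out 231 Trig or A202 did not end the call. The size moved little, from -0.47 to -0.40 over these. Within slides the difference was -0.30 on slide 1, -0.52 on slide 2 and -0.50 on slide 3, and with slide as a block it was -0.43 (limma adjusted p = 0.102). Without slide 1 it was -0.51 (limma adjusted p = 0.00341), and without the chromosome median it was -0.27 (limma adjusted p = 0.454).

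V1rd16, its neighbour, leaned the same way without passing. It read 0.31, 0.17, 0.16 and 0.27 in B86, B91, B96 and B76, and -0.16 to 0.23 with a median of 0.0010 in the mixed tumours. The difference was -0.22 ± 0.068 (SE; limma adjusted p = 0.361), and the groups overlapped through 231 Trig. As a cluster the V1rd16 and V1rd18 probes had a median of 0.35 ± 0.028 (SD, n = 4) in the C57BL/6J tumours and 0.020 ± 0.12 (SD, n = 7) in the mixed tumours, with no overlap. The cluster holds no other probe, so its value rests in part on V1rd18 and is not separate evidence.

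Probes next to V1rd18 that are not receptors differed as well. An unnamed probe at chr7:24838530-24838589 (mm9) had means of 0.42 ± 0.12 (SD, n = 4) in C57BL/6J and -0.27 ± 0.22 (SD, n = 7) in mixed tumours, a difference of -0.69 that was called (limma adjusted p = 0.0331). The nearer probe of AK135913 differed by -0.36 (limma adjusted p = 0.0776) and the other by -0.026. Further on, Zfp180 differed by -0.0080 and -0.21, Zfp112 by -0.29 and -0.56 and AK029597 by -0.30, and none of these passed (limma adjusted p from 0.230 to 0.995). Zfp235 and Zfp114, beyond them, differed by 0.070 and 0.18 and did not pass. On the other side of the V1rd pair, 4 probes of Nlrp5 and BC154405 differed by -0.075 to 0.10. The next probes on that side, of Nlrp9b, lie far from V1rd18, at chr7:20615334-20615393 and chr7:20611857-20611916 (mm9). They differed by -0.68 (limma adjusted p = 0.221) and 0.19 (limma adjusted p = 0.339), and are not part of its close surroundings. The 1 Mb bin with both V1rd probes differed by -0.12 (limma adjusted p = 0.769). None of the 23 member bins was called between backgrounds by limma, and of all bins 0.0% were called. An unadjusted p under 0.05 was met by 2 member bins. The share of all bins at that level is not given, so these 2 are not read as a result.

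**Figure D4:**
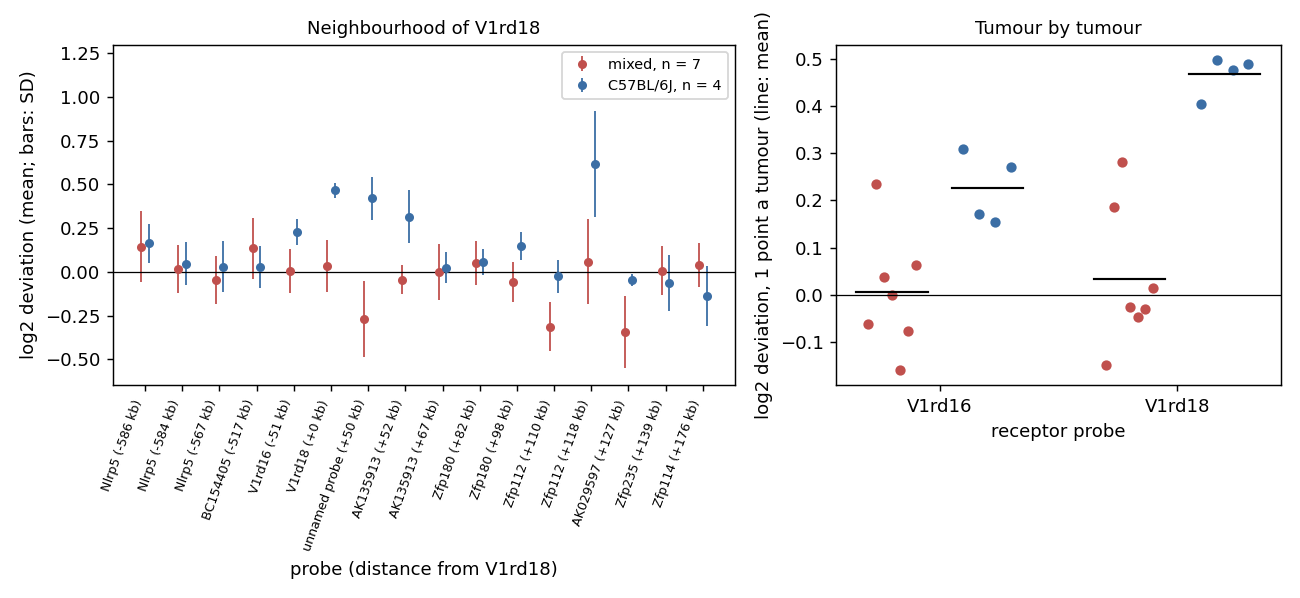
Left, mean deviation (log2, bars SD) in mixed (red, n = 7) and C57BL/6J (blue, n = 4) tumours of V1rd18 and the probes around it in genome order; right, V1rd16 and V1rd18 in each tumour with group means. The C57BL/6J tumours lie between 0.40 and 0.50 at V1rd18 and the mixed tumours between -0.15 and 0.28.

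Taken by channel, the V1rd18 difference was larger in the tumour channel than in the reference channel. After adjustment for GC content and the chromosome median, the log2 signal of the reference channel at V1rd18 was 0.33 ± 0.028 (SD, n = 7) on arrays of mixed tumours and 0.27 ± 0.085 (SD, n = 4) on those of C57BL/6J tumours. The tumour channel was 0.36 ± 0.18 (SD, n = 7) and 0.72 ± 0.059 (SD, n = 4). The differences were 0.065 (limma adjusted p = 0.989) and -0.36 (limma adjusted p = 0.599), so neither channel passed alone. Over the 65 members no difference between backgrounds was called by limma in either channel, with 0 at an unadjusted p under 0.05 in the reference channel and 2 in the tumour channel. Of all probes 0.57% in the reference channel and 3.89% in the tumour channel had an unadjusted p under 0.05. Of all probes 0.0% were called in the reference channel and 0.00246% in the tumour channel.

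The other 64 members did not pass between backgrounds. Including V1rd18, 6 of the 65 (9.23%) had an unadjusted p under 0.05, against 6.90% of all probes. They were V1rd18, V1rd16, V1rb1, V1re13, V1ri4 and V1rh11, named here after their values were seen. On average V1ri4 read 0.15 in the mixed tumours against 0.31 in those of C57BL/6J, and V1rb1 read -0.10 against -0.24. None of these but V1rd18 passed after adjustment over all probes.

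The V1ra, V1rb and V1rc receptors lie in 3 clusters of chromosome 6. The V1rc32 to V1rc17 cluster had a median of 0.012 to 0.16 over the tumours and a mean of 0.10 ± 0.047 (SD, n = 11), and the V1rb7 to V1ra9 cluster one of -0.035 to 0.23 and a mean of 0.098 ± 0.067 (SD, n = 11). In the C57BL/6J tumours B86, B91, B96 and B76 these were 0.16, 0.059, 0.085 and 0.076 for the first and 0.23, 0.11, 0.12 and 0.083 for the second. Neighbouring genes of a cluster differed in sign in the same tumours. V1rb7 was below 0 in all 11 tumours, with a mean of -0.18 ± 0.11 (SD, n = 11), while V1ra9 was above 0 in all 11, with a mean of 0.25 ± 0.060 (SD, n = 11). V1rb7 did not reach the size minimum.

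Of the chromosome 6 receptors, V1rb8 and V1rc15 varied most between tumours. V1rb8 read 0.84 in A202 and between 0.059 and 0.15 in all other mixed tumours, and 0.32, 0.25, 0.20 and 0.27 in B86, B91, B96 and B76. Its mean of 0.23 was called, but without A202 it was 0.17 and below the size minimum, and with normexp correction it was 0.20 and just below it. The adjusted log2 signal of V1rb8 itself varied widely on arrays of mixed tumours. There its SD was 1.46 in the reference channel and 1.18 in the tumour channel. On arrays of C57BL/6J tumours these SDs were 0.067 and 0.088. V1rc15 lay between -0.37 and 0.28 on the 4 arrays of slide 1 and between 0.29 and 0.55 in the other 7 tumours, so slide and scanner moved with its value, and without slide 1 its mean was 0.45. Its mean of 0.27 ± 0.31 (SD, n = 11; limma adjusted p = 0.0110) turned to -0.098 with normexp correction. The reference signal of this probe, relative to its chromosome's level, was -2.28 on the log2 scale, the lowest of all members.

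The V1rh and V1ri receptors of chromosome 13 formed 1 cluster of 11 probes and 9 genes. The cluster's median lay between -0.049 and 0.20, with a mean of 0.068 ± 0.074 (SD, n = 7) in mixed and 0.16 ± 0.045 (SD, n = 4) in C57BL/6J tumours, where it was 0.16, 0.19, 0.20 and 0.099 in B86, B91, B96 and B76. V1ri6 was the lowest member of all. It read -0.58 to -0.22 in the mixed tumours, with a median of -0.32, and -0.46, -0.21, -0.26 and -0.28 in B86, B91, B96 and B76, a mean of -0.33 ± 0.12 (SD, n = 11; limma adjusted p = 2.79e-06). All 11 tumours were below 0. The lowest values were -0.58 in A202, -0.50 in 231 Trig and -0.46 in B86, all of slide 1, while A18 of that slide read -0.27. Of the other members of the cluster, V1ri4 and 1 of the 3 V1rh13 probes were higher; V1ri4 fell below the size minimum without B86, without B91 or without B76, at 0.19 to 0.20.

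Among the Vmn2r receptors, 4 of 12 probes were higher and none was lower, while 13.9% of all autosomal probes were higher and 15.4% lower. Vmn2r90 of chromosome 17 was raised in every tumour, at 0.32 to 0.47 in the mixed tumours with a median of 0.35 and at 0.40, 0.27, 0.32 and 0.47 in B86, B91, B96 and B76. Its mean was 0.38 ± 0.065 (SD, n = 11; limma adjusted p = 2.02e-08). Vmn2r118 had a mean of 0.26 and Vmn2r10 of 0.21, and Vmn2r26 lay at the size minimum with 0.20. Without B86, B91, A292, A382 or B76 the mean of Vmn2r26 was 0.19 to 0.20 and the call was lost. Vmn2r83 of chromosome 10 read -0.82 in A18 and -0.20 to 0.14 in the other 10 tumours, and its mean of -0.075 did not pass (limma adjusted p = 0.378). Its direction turned with normexp correction, to 0.038, and without slide 1, to 0.054.

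By subfamily, the median of the mean deviations was highest for V1rl (0.22, 3 probes of 1 gene), V1re (0.20, 10 probes) and V1rf (0.20, 5 probes), and lowest for V1rb (-0.15, 3 probes). Of the 15 receptor probes of chromosome 17, 10 were higher and 1 lower, with a median of 0.25. Of the 50 on other chromosomes, 12 were higher and 1 lower, with a median of 0.10. Over all autosomal probes 13.9% were higher and 15.4% lower. Probes of chromosome 17 that are not receptors were raised as well, 4 of 10 within the V1re and V1rf array. Probes of one subfamily mostly share a cluster, so subfamily and position were not separated. V1re lies on both chromosomes 7 and 17. Its chromosome 7 probes, V1re11 and V1re13, had means of 0.059 and 0.039, and those of chromosome 17 had means of 0.13 to 0.40.

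Cluster by cluster and tumour by tumour, 44 of 165 values (26.7%) lay at or above 0.2 and 4 (2.42%) at or below -0.2. Among all 1 Mb bins with at least 3 probes, 3.94% of the values by tumour were at or above 0.2 and 1.83% at or below -0.2. Medians of few probes vary more than bin medians, and 4 clusters rest on 1 probe. In the 5 clusters of at least 3 probes, 9 of 55 values were at or above 0.2 and none at or below -0.2. Of these 9, 7 came from the V1re and V1rf array, 1 from the chromosome 7 cluster in A18 and 1 from the V1rb7 to V1ra9 cluster in B86. By tumour, the number of member probes at or above 0.2 ran from 14 of 65 in A202 to 30 of 65 in B91. In these tumours 16.4% and 18.9% of all probes were at or above 0.2. The number at or below -0.2 ran from 2 of 65 in A394 to 8 of 65 in B76, beside 16.5% and 18.3% of all probes. Over all probes the shares were 15.4% to 20.5% and 16.4% to 22.9%.

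**Figure D5:**
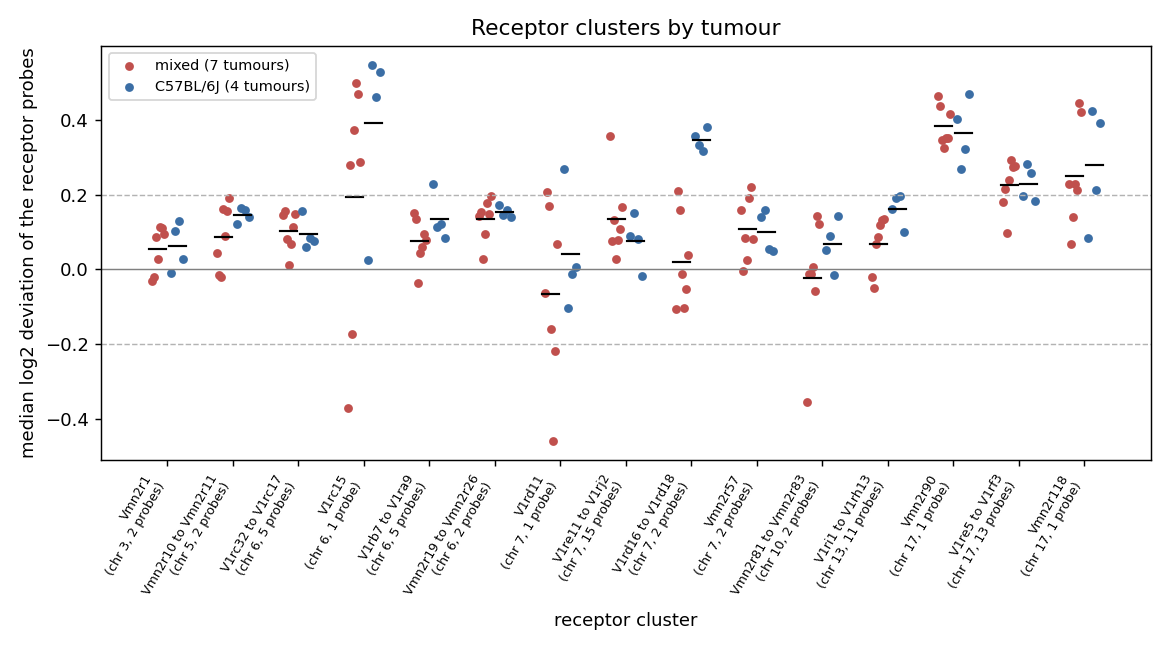
Median deviation (vertical, log2) of each of the 15 receptor clusters in each tumour, mixed in red (7) and C57BL/6J in blue (4), with a black line at each group's mean and dashed lines at -0.2 and 0.2. Vmn2r90 lies above 0.2 in all 11 tumours, and A18 is alone at 0.36 in the V1re11 to V1rj2 cluster. V1rd16 to V1rd18, a cluster that includes the called V1rd18 probe, separates the backgrounds.

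The A382 culture was measured at passage 8 and at passage 9. Over the 65 members the difference, passage 9 minus passage 8, had a median of -0.0068 and an SD of 0.077, against an SD of 0.092 over all probes. The largest member difference in size was 0.20, at a Vmn2r57 probe. The V1re and V1rf cluster was 0.30 at passage 8 and 0.26 at passage 9, and the V1rd pair -0.033 and -0.071. Passage also changed slide, so the spread covers both.

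Other chemosensory receptor families are given beside the members. Of 666 olfactory receptor probes, 126 (18.9%) were higher and 28 (4.20%) lower, with a median mean deviation of 0.087. Of 29 taste receptor probes, 9 (31.0%) were higher and none lower, with a median of 0.11. The 3 probes of formyl peptide receptors, a family with members expressed in the vomeronasal organ, had 1 higher and a median of 0.19. In each family, as in the members, fewer probes were lower than the 15.4% of all probes; whether these shares differ from the members' was not tested. Between backgrounds, 1 olfactory receptor probe was higher and 1 lower, and no taste or formyl peptide receptor probe was called.

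Of 53 genes listed for the vomeronasal neuron and its signalling, 35 had autosomal probes under these names. Of these 7 of 35 were higher, 3 (8.57%) were lower and 25 did not pass, where 12.3% of all genes were higher and 12.3% lower. The median mean deviation was 0.045, against 0.0015 over all genes. Gng13, a G protein gamma subunit, was lower, with a mean of -0.68 ± 0.38 (SD, n = 11) and values from -1.61 to -0.082. H2-M11, of the H2-M family co-expressed with V2r receptors, was higher at 0.46 ± 0.15, and Ano2, a calcium-activated chloride channel, at 0.32 ± 0.062 (SD, n = 11 each). The lipocalins Lcn3 and Lcn4 had means of 0.31 and 0.29. Gnai2 and Gnao1 had means of -0.043 and 0.15, and neither was called. None of the 35 was called between backgrounds by limma. An unadjusted p under 0.05 was met by 3 of the 35, where 6.90% of all probes met it. The share of all genes is not given, so these 3 are not read as a result.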

How the data were processed

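Genomic DNA was measured on 12 two-colour Agilent arrays of 11 tumours. Per the submitters' processing notes, Agilent Feature Extraction 9.5 and build mm9 were used. The deposited values were processed intensities of each channel, background-subtracted and dye-normalised per the file headers, and their log10 ratio of Cy5 over Cy3, which equals the authors' series table. Control spots were left out, and then outlier spots (at most 1.99% of the remaining spots per array). From the deposited log10 ratios, log2 ratios were computed and averaged by probe. They were centred on the array's autosomal median and on each chromosome's median, and the arrays of A382 were averaged. limma 3.58.1 in R 4.3.3 was fitted to 40726 autosomal probes (lmFit and eBayes), and called probes had an adjusted p under 0.05 and a size of at least 0.2. Fits across bins of 1 Mb with at least 3 probes, genes and channels (log2 of the deposited intensities) were made in the same way. Cluster medians are descriptions without a test. The test of the difference between backgrounds was tried on simulated data in which probes varied independently. The tests against 0, and slide or dye effects, were not tried in this way. Precision is limited by 11 tumours, and the p-values rest on the spread between tumour cultures. The reference DNA was on every array and no dyes were swapped. The tests against 0 therefore do not cover the spread of the reference or a dye effect of a probe.

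The genes and lists were chosen with earlier results of these data known. Named were clusters of 3 or more probes, the largest called differences between backgrounds (up to 10), the 5 highest and 5 lowest called means, the 6 farthest single values (at most 2 a cluster) and up to 5 called genes of the signalling list; others are given as context. Alternatives changed the centring, background correction, normalisation, GC adjustment, spot and dim-probe filters, slide, passage, size minimum, cluster gap and tumours.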

Additional observations from a re-analysis of the deposited data

Results flagged for a closer look

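In groups of 4 or 7 tumours, a highest or lowest value that stood far from its nearest neighbour was sought for the named probes and the clusters of at least 3 probes. This was met in 8 of 36 groups. Chance meets it in about 1 of 20, but V1rj3, V1rg11, V1rb8, Vmn2r83, V1rc15 and V1ri6 had been named for a far single value, so the 8 cannot be read against that rate. In the mixed tumours A18 stood apart at V1rj3 (1.35), V1rg11 (1.23), Vmn2r83 (-0.82) and the chromosome 7 cluster from V1re11 to V1rj2 (0.36), A202 at V1rb8 (0.84) and A382 at V1re4 (0.27). In the C57BL/6J tumours B76 stood apart at V1re4 (0.28) and B86 at V1rc15 (0.026). V1rj3 and V1rg11 lie in the raised stretch of A18 and belong to the chromosome 7 cluster, so these flags are not independent. Of the 15 probes of that cluster, 4 lie in the stretch. The 11 before them had a median excess of 0.22 in A18. V1rd18 differed between backgrounds by -0.43, mixed minus C57BL/6J, by limma's test of the difference itself.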

How the results depend on the processing

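The count of 1 member called between backgrounds was 0 without the chromosome median, with normexp correction, with GC adjustment, with A382 at passage 9 alone, with slide as a block, with a size minimum of 0.5, and 0 to 1 with 1 tumour left out; the adjusted p of V1rd18 was 0.00341 to 0.454 over all alternatives, always with a negative difference. The 22 members called higher over the tumours became 45 with no size minimum, 0 with one of 0.5, and 19 to 23 with 1 tumour left out. Of the 22, 16 were called under every omission. The 2 called lower became 6 with normexp, 5 without slide 1, 6 with no size minimum, 0 with 0.5, and 2 to 3 with 1 tumour left out. C57BL/6J calls higher (21) became 37 with no minimum and 0 with 0.5, and 18 to 23 with 1 tumour left out; mixed calls (17) became 28 without the chromosome median, 33 with no minimum and 0 with 0.5, and 16 to 20 with 1 tumour left out. The 2 member bins called higher became 7 without the chromosome median, 1 with the local baseline, 1 with bin means, 16 with no minimum, 0 with 0.5, and 1 to 2 with 1 tumour left out. V1rc15 reversed with normexp (-0.098), and Vmn2r83 with normexp (0.038) and without slide 1 (0.054). Without the chromosome median, an alternative chosen after seeing the data, cluster means moved to 0.26 (V1rc32 to V1rc17), 0.25 (V1rb7 to V1ra9), -0.020 (V1ri1 to V1rh13) and 0.34 (V1re5 to V1rf3). Other gaps, cluster means, local baselines, passages and GC adjustment, the last also chosen after seeing the data, moved the mean of each of the 5 clusters of at least 3 probes by less than the spread between tumours. The local baseline nevertheless took the mean of the V1re5 to V1rf3 cluster from 0.23 to 0.17, below 0.2. Causes were not tested. No paired analysis was possible because the labels give the tumours no replicate numbers; slides hold both backgrounds, and the fit with slide as a block is given above.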
